A study of Schmidtea mediterranea with 48 samples.

Results

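Wound faces of control planarians collected at 48 hours post amputation (hpa) were compared with those collected at 24 hpa in the shorter of the series' feeding schedules, here named 6F for its 6 feedings of double-stranded RNA. The comparison takes the 3 control libraries of each time by their column labels, 6 of the 48 libraries of the series. The animals were Schmidtea mediterranea of strain CIW4, fed over 3 weeks with double-stranded RNA against unc-22, the control target, which comes from a nematode, and each replicate pooled 5 wounds of tail fragments. The main groups that were set beside them are wounds at 48 and 24 hpa after fst RNAi in the same experiment. Control wounds at 48 and 24 hpa of a separate experiment on myoD were used in the same way. That experiment is named 10F because its labels give 10 feedings over 5 weeks, although the series text gives 8 feedings. Levels after myoD RNAi in the 10F experiment, and levels before 24 hpa in both experiments, are also described. No comparison of these further groups was tested. All groups held 3 libraries of polyadenylated RNA made with a stranded kit. Every animal had been fed double-stranded RNA, so no group shows wounds of untreated animals. The labels do not say whether replicates stem from different animals, and the p-values therefore rest on a spread between libraries that may be technical.

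Planarians regrow missing body parts from neoblasts, the dividing stem cells of the adult body. A cut first switches on wound-induced genes in the tissue near it, and over the next days neoblasts divide and their progeny gather under the wound epidermis as a blastema, in which the new tissue differentiates. The follistatin gene fst encodes a secreted inhibitor of Activin signals that planarians need to mount the response to missing tissue, and myoD encodes a transcription factor of muscle that planarians need for their longitudinal body wall fibres. The 24 to 48 hpa interval in controls bears on which transcripts change at the wound as this response goes on. Identifiers in the deposited files carry no gene names, so transcripts are given by identifier, without a role, and the labelled tissue could not be checked against its defining markers. A wound face holds many cell types, and in such bulk samples a change in the share of a cell type and a change in RNA per cell cannot be told apart.

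Total counts were 7169717 to 10545948 in the 48 hpa libraries and 16758797 to 18668087 in the 24 hpa libraries of the 6F controls, ranges that do not overlap; the part of this gap in depth in the results was not tested. In 10F controls they were 13646489 to 14976844 at 48 hpa and 13052534 to 21974437 at 24 hpa, and after fst RNAi 7980762 to 9849182 at 48 hpa and 9265914 to 18733006 at 24 hpa. The label of 1 library, replicate 1 of fst RNAi at 48 hpa, notes human contamination; that library is in neither group of the 6F control comparison, and enters it through the spread, the filter on low counts and the scaling shared by the 24 libraries of the experiment.

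The 6F libraries also fell into sets that their labels do not explain. The 3 control libraries at 48 hpa, the 3 fst RNAi libraries at 24 hpa and the 3 fst RNAi libraries at 48 hpa formed one set of 9, and the remaining 15 libraries of the experiment, the 24 hpa controls among them, formed the other. dd_Smed_v4_28185_0_1, which was used to define the sets, had 4.98, 4.86 and 5.67 CPM, the read count scaled to a common library size, in 6F controls at 48 hpa and 0, 0 and 0 CPM at 24 hpa. All 3 libraries at 48 hpa were above all 3 at 24 hpa, with 156 counts against 0, and the level was at least 92.1-fold higher against a floor of 3 counts over the 24 hpa group. This transcript had 2.85, 6.14 and 6.24 CPM after fst RNAi at 48 hpa and 4.19, 4.35 and 4.86 CPM after fst RNAi at 24 hpa, and no library of the 10F experiment exceeded 0.285 CPM. dd_Smed_v4_7642_0_1 had 30.1, 35.2 and 22.6 CPM in 6F controls at 48 hpa and 0.692, 0.115 and 0.679 CPM at 24 hpa. Its levels after fst RNAi, 11.5, 26.7 and 27.5 CPM at 48 hpa and 30.2, 21.3 and 30.7 CPM at 24 hpa, overlapped those of the 48 hpa controls, with the lowest value in the contaminated library, and its 10F libraries lay between 0.0675 and 0.433 CPM. The log2 fold change of dd_Smed_v4_7642_0_1 in 6F controls was 5.84. Both transcripts were chosen for this very difference between the groups, so their values are a description, with no test.

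**Figure D1:**
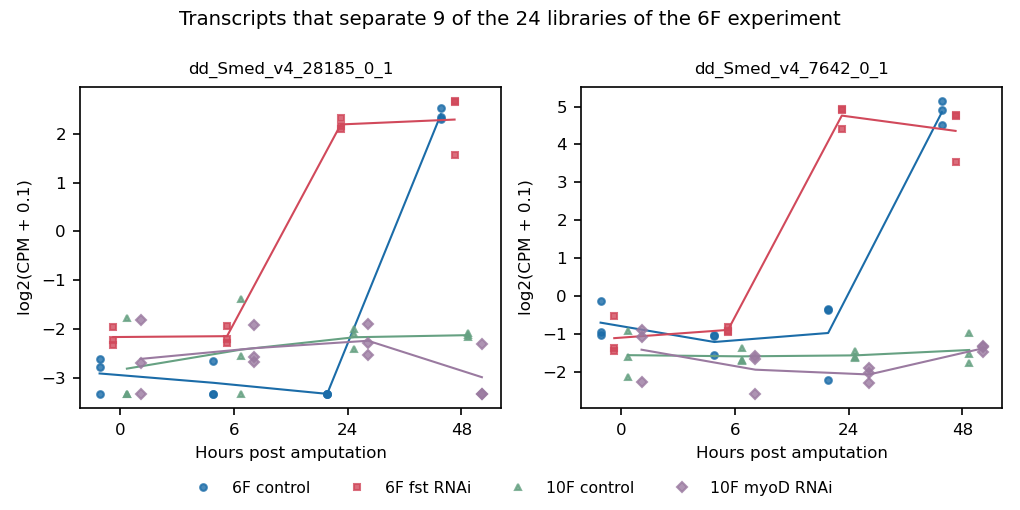
CPM on a log2(CPM + 0.1) axis against hours post amputation for dd_Smed_v4_28185_0_1 and dd_Smed_v4_7642_0_1, with 1 point per library and lines through group means, for controls and RNAi of both experiments. In the 6F experiment the 9 high libraries are the controls at 48 hpa and the fst RNAi libraries at 24 and 48 hpa, and all other libraries lie near the bottom of the axis.

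In all, 7 transcripts were at least 2-fold higher in the lowest of the 9 libraries than in the highest of the 15, with a floor of 0.2 CPM, and 0 were so in the reverse direction. All 7 were called higher at 48 hpa in the 6F controls, as their choice favours, and none of the 7 had enough counts to be tested in the 10F experiment. Hours post amputation and the set of libraries cannot be told apart within the 6F controls, because all libraries of a time lie in the same set. After fst RNAi both times lie in the set of 9. The 10F libraries were not divided into sets, but all were low in dd_Smed_v4_28185_0_1 and dd_Smed_v4_7642_0_1. For dd_Smed_v4_18602_0_1, another of the 7, they reached 0.540 CPM, against at most 0.197 in the 15 and at least 0.572 in the 9. The changes below are given beside those in 10F controls and after fst RNAi.

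In the 6F controls 829 of 17815 transcripts were called at an adjusted p under 0.05 in edgeR's quasi-likelihood test with Benjamini-Hochberg adjustment (4.65%), of which 382 were higher (2.14%) and 447 lower (2.51%) at 48 than at 24 hpa. The change was at least 2-fold for 97 of the higher and 61 of the lower transcripts. The median log2 fold change was 0.63 over the higher calls and −0.54 over the lower calls, and 0.01 over all transcripts tested. The 3 libraries at 48 hpa did not overlap the 3 at 24 hpa for 826 of the 829 called transcripts, and for 30.4% of all transcripts tested. Without the contaminated library, 1916 transcripts were called (10.5%), 903 higher (4.97%) and 1013 lower (5.57%), and these held all 382 higher calls and 446 of the 447 lower calls. With the set of libraries added as a term, 291 were called (1.63%), 95 higher (0.533%) and 196 lower (1.1%). That fit assumes an RNAi effect equal at all times. In it the level of the 24 hpa controls cancels, and 48 hpa is set against the fst RNAi libraries at 24 hpa. It is therefore not a second reading of the change from the 24 hpa controls, here or for the transcripts below. In that fit 357 of the 382 and 413 of the 447 kept their direction, and 47 and 77 were called in it. Leaving out replicate 1, 2 or 3 of 48 hpa gave 481, 441 and 480 calls, and replicate 1, 2 or 3 of 24 hpa 492, 336 and 375 calls.

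Calls were more frequent among abundant transcripts and leaned downward there. Of 1604 transcripts with a mean of at least 100 CPM over the 6 libraries, 153 (9.54%) were called, 38 higher and 115 lower. Of 7823 transcripts between 10 and 100 CPM, 424 (5.42%) were called, 181 higher and 243 lower. Of 5748 between 1 and 10 CPM, 211 (3.67%) were called, 129 higher and 82 lower. Below 1 CPM, 41 of 2640 (1.55%) were called, 34 higher and 7 lower. The filter on low counts admits a rare transcript that is high in a single group. Of these rare calls, 13 of the 34 higher and all 7 lower were tested in 10F controls. The part of the filter and of the set of 9 libraries in this upward lean was not tested. The 115 abundant lower transcripts together took 4.27%, 4.61% and 4.53% of all scaled counts in 6F controls at 48 hpa and 6.23%, 6.85% and 6.68% at 24 hpa. The same 115 took 4.73%, 5.03% and 5.69% in 10F controls at 48 hpa and 6.73%, 6.36% and 6.48% at 24 hpa, so in the libraries that did not choose them the 48 hpa values again lay below the 24 hpa values without overlap.

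The direction of the 6F calls was read in the 10F controls, which share no library with them. Of the 382 higher calls, 357 were tested there, 343 of these (96.1%) were also higher at 48 hpa and 213 were called higher. These 213 are 55.8% of the 6F calls and 26.1% of the 815 transcripts called higher in 10F controls (4.65% of 17527 tested; 1827 in either direction, 10.4%), and 1 transcript was called in the opposite direction. Of the 447 lower calls, all were tested, 433 (96.9%) were also lower and 227 were called lower, which is 50.8% of the 6F calls and 22.4% of the 1012 called lower in 10F controls (5.77%), with 0 called in the opposite direction. For comparison, 66.1% of the 17288 transcripts tested in both experiments had the same sign. The median log2 fold change was 0.59 in 6F and 0.37 in 10F controls for the 357, and −0.54 and −0.31 for the 447, which had been chosen by their 6F values. Read the other way, 780 of 814 transcripts called higher and 802 of 989 called lower in 10F controls had that direction in 6F controls. For these, chosen by their 10F values, the median was 0.28 in 6F and 0.35 in 10F controls for the 814, and −0.26 and −0.41 for the 989, so in both readings the change was larger in the experiment that chose the list. Without the contaminated library, 799 of 856 higher and 918 of 1008 lower calls in 6F controls had the same sign in 10F controls. The 440 calls shared in direction became 301, 263 and 290 on leaving out replicate 1, 2 or 3 of 48 hpa and 286, 236 and 242 on leaving out replicate 1, 2 or 3 of 24 hpa of the 6F controls, and the 10F controls had 848 calls when replicate 1 of 48 hpa was left out.

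**Figure D2:**
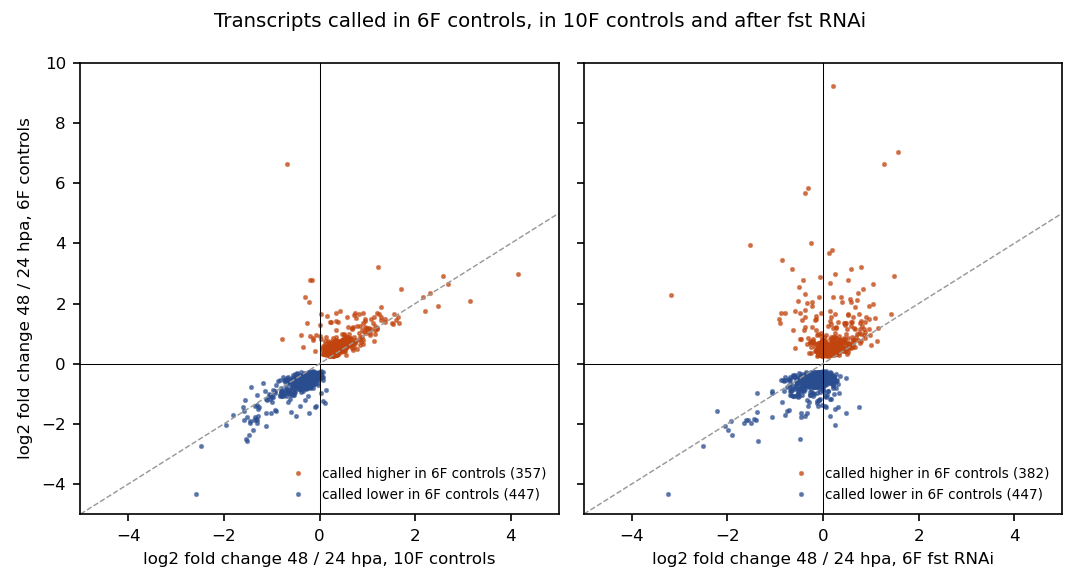
Log2 fold change of 48 against 24 hpa in 6F controls on the vertical axis against that in 10F controls (left) and after fst RNAi (right), with 1 point per transcript called in 6F controls and a dashed line of equal change. In the left panel 343 of 357 higher and 433 of 447 lower calls lie on the side of their 6F sign. In the right panel dd_Smed_v4_28185_0_1 and dd_Smed_v4_7642_0_1, which separate the 9 libraries, are among the highest points and lie near 0 on the horizontal axis. dd_Smed_v4_16554_0_1 and dd_Smed_v4_21326_0_1, also among the highest, lie at 1.56 and 1.28 on that axis.

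Transcripts whose levels followed the set of libraries were counted apart. The 9 libraries lay wholly above the 15 for 39 of the 382 higher calls and wholly below for 26 of the 447 lower calls, and over all transcripts tested for 73 and 63. Of the 39, 24 were tested in 10F controls, 21 of them were higher at 48 hpa and 10 were called. Of the 343 other higher calls, 333 were tested, 322 were higher and 203 were called. Of the 26, all were tested, 24 were lower and 12 were called, and of the other 421 lower calls 409 were lower and 215 called. The median log2 fold change in 6F controls was 1.41 over all 39 and 0.60 over all 343. In 10F controls it was 0.27 over the 24 tested and 0.39 over the 333 tested, so the medians of the 2 experiments cover unlike members. By abundance, of 34 higher calls below 1 CPM, 13 were tested in 10F controls and 2 called there, whereas all 38 higher calls of at least 100 CPM were tested and 33 called.

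After fst RNAi 192 transcripts were called between 48 and 24 hpa in edgeR's test (1.08%), 78 higher (0.438%) and 114 lower (0.64%). Of the transcripts called in 6F controls, 274 of 382 higher (71.7%) and 337 of 447 lower (75.4%) had the same sign after fst RNAi, beside 60.4% of all 17815, and 22 and 41 were called in the same direction. Their median log2 fold change after fst RNAi was 0.16 for the higher calls and −0.17 for the lower calls. Whether the change differed between fst RNAi and controls was not tested here. The fst count rested on single libraries: it was 80 without the contaminated replicate 1 of 48 hpa, 1462 without replicate 2 and 1691 without replicate 3 of 48 hpa, and 44 without replicate 1 and 123 without replicate 3 of 24 hpa.

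The 382 and 447 transcripts were then followed over all times in libraries that had not chosen them, as the median difference from the 24 hpa mean of the same group on the log2(CPM + 0.1) scale. For the 382, the 10F controls stood at −0.23 at 0 hpa, −0.17 at 6 hpa, 0 at 24 hpa by construction and 0.36 at 48 hpa, with 0.27 to 0.49 in the single libraries at 48 hpa. For the 447, the 10F controls stood at 0.21, 0.08, 0 and −0.32 at these times, with −0.38 to −0.24 in the single libraries at 48 hpa. Over all 17815 transcripts no such median left the range of −0.0006 to 0.0068 in these controls. After myoD RNAi the medians at 48 hpa were −0.01 for the 382 (−0.03 to 0.02 in single libraries) and −0.05 for the 447 (−0.07 to −0.05), and after fst RNAi they were 0.15 (0.10 to 0.26) and −0.18 (−0.31 to −0.06). The 48 hpa libraries of the 10F controls therefore lay outside those of myoD RNAi in both lists, a difference that was not tested.

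By mean CPM in 10F controls, 341 of the 357 higher calls were higher at 48 than at 24 hpa. In 257 of these 341 (75.4%) the 0 hpa level was below both, in 56 it lay between them and in 28 it was above both. Over all transcripts higher at 48 than at 24 hpa in 10F controls, the 0 hpa level was below both in 55.1%. Of the 447 lower calls, 433 were lower at 48 hpa by mean CPM, and in 317 of these (73.2%) the 0 hpa level was above both, beside 55.3% over all transcripts lower at 48 hpa. Most of these transcripts thus moved in 10F controls in the direction in which 24 hpa already differed from 0 hpa.

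Among transcripts called in both control experiments with no overlap between the libraries, dd_Smed_v4_8340_0_1 and dd_Smed_v4_36433_0_1 had the largest rises, ranked by the smaller of the 2 changes. dd_Smed_v4_8340_0_1 had 11.6, 11.1 and 15.6 CPM in 6F controls at 48 hpa and 2.31, 1.95 and 1.77 CPM at 24 hpa. In 10F controls it had 14.3, 12.3 and 7.22 CPM at 48 hpa and 1.97, 2.12 and 1.26 CPM at 24 hpa. The times did not overlap in either experiment, and the libraries of the 2 experiments overlapped at each time. The log2 fold change was 2.65 in 6F controls (SE 0.27, adjusted p = 7.80e-07) and 2.70 in 10F controls (SE 0.33, adjusted p = 1.02e-05) in edgeR's quasi-likelihood tests. After fst RNAi it had 3.26, 0.974 and 1.61 CPM at 48 hpa and 1.05, 0.922 and 0.705 CPM at 24 hpa, a log2 fold change of 1.05 that was not called by edgeR (adjusted p = 0.134). Levels after myoD RNAi, not tested, were 0.877, 2.09 and 0.903 CPM at 48 hpa and 0.847, 1.11 and 0.509 CPM at 24 hpa. In the fit with the set of libraries as a term its log2 fold change was 1.72 and not called (adjusted p = 0.0869 in edgeR).

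dd_Smed_v4_36433_0_1 had 3.82, 3.62 and 4.16 CPM in 6F controls at 48 hpa and 0.404, 0.459 and 0.626 CPM at 24 hpa. It had 3.96, 3.27 and 2.93 CPM in 10F controls at 48 hpa and 0.227, 0.929 and 0.494 CPM at 24 hpa. All 48 hpa libraries were above all 24 hpa libraries in both experiments, and the means of the 0 and 6 hpa groups of these controls lay between 0.142 and 0.266 CPM. The log2 fold change was 2.92 in 6F controls (SE 0.37, adjusted p = 2.50e-05) and 2.59 in 10F controls (SE 0.35, adjusted p = 5.51e-06) in edgeR's tests. After fst RNAi it was 1.48 and not called (adjusted p = 0.103 in edgeR), and with the set of libraries as a term it was 1.79 and not called (adjusted p = 0.0518). Levels after myoD RNAi, not tested, were 0.464, 0.372 and 0.526 CPM at 48 hpa and 0.339, 0.634 and 0.582 CPM at 24 hpa.

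The falls chosen by the same rule were those of dd_Smed_v4_4427_0_1 and dd_Smed_v4_1427_0_1. dd_Smed_v4_4427_0_1 had 3.99, 2.10 and 4.03 CPM in 6F controls at 48 hpa and 13.3, 12.6 and 15.1 CPM at 24 hpa, and 3.34, 2.86 and 4.88 CPM in 10F controls at 48 hpa and 14.0, 15.2 and 13.8 CPM at 24 hpa. The 4 groups did not overlap between times. The transcript fell by 2.03 on the log2 scale in 6F controls (SE 0.18, adjusted p = 8.70e-08) and by 1.95 in 10F controls (SE 0.14, adjusted p = 1.98e-11) in edgeR's tests, after means of 33.1 and 33.2 CPM at 0 hpa. Its levels in the RNAi groups did not follow the controls. After fst RNAi they were 42.0, 44.6 and 45.5 CPM at 48 hpa and 35.1, 37.3 and 37.7 CPM at 24 hpa, and after myoD RNAi 40.3, 40.2 and 35.0 CPM at 48 hpa and 33.7, 36.3 and 40.8 CPM at 24 hpa, all above every control library of these times. In the fit with the set of libraries as a term, which assumes an RNAi effect equal at all times, its log2 fold change was −0.46 (adjusted p = 0.666 in edgeR).

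dd_Smed_v4_1427_0_1 had 11.1, 78.1 and 17.8 CPM in 6F controls at 48 hpa and 80.0, 146 and 163 CPM at 24 hpa. In 10F controls it had 12.5, 30.7 and 39.9 CPM at 48 hpa and 104, 68.2 and 76.2 CPM at 24 hpa. The times did not overlap, but 48 hpa replicate 2 of the 6F controls came close to the lowest 24 hpa library. The transcript fell by 1.86 on the log2 scale in 6F controls (SE 0.50, adjusted p = 0.0423) and by 1.58 in 10F controls (adjusted p = 0.0156) in edgeR's tests. Its log2 fold change was −1.61 after fst RNAi, not called (adjusted p = 0.0955), and −1.81 with the set of libraries as a term, still called (adjusted p = 0.0357). The 6F call was lost in edgeR on leaving out replicate 2 (adjusted p = 0.130) or 3 (0.136) of 24 hpa or replicate 1 (0.122) or 3 (0.144) of 48 hpa, and when the 6 libraries were fitted alone (0.269).

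**Figure D3:**
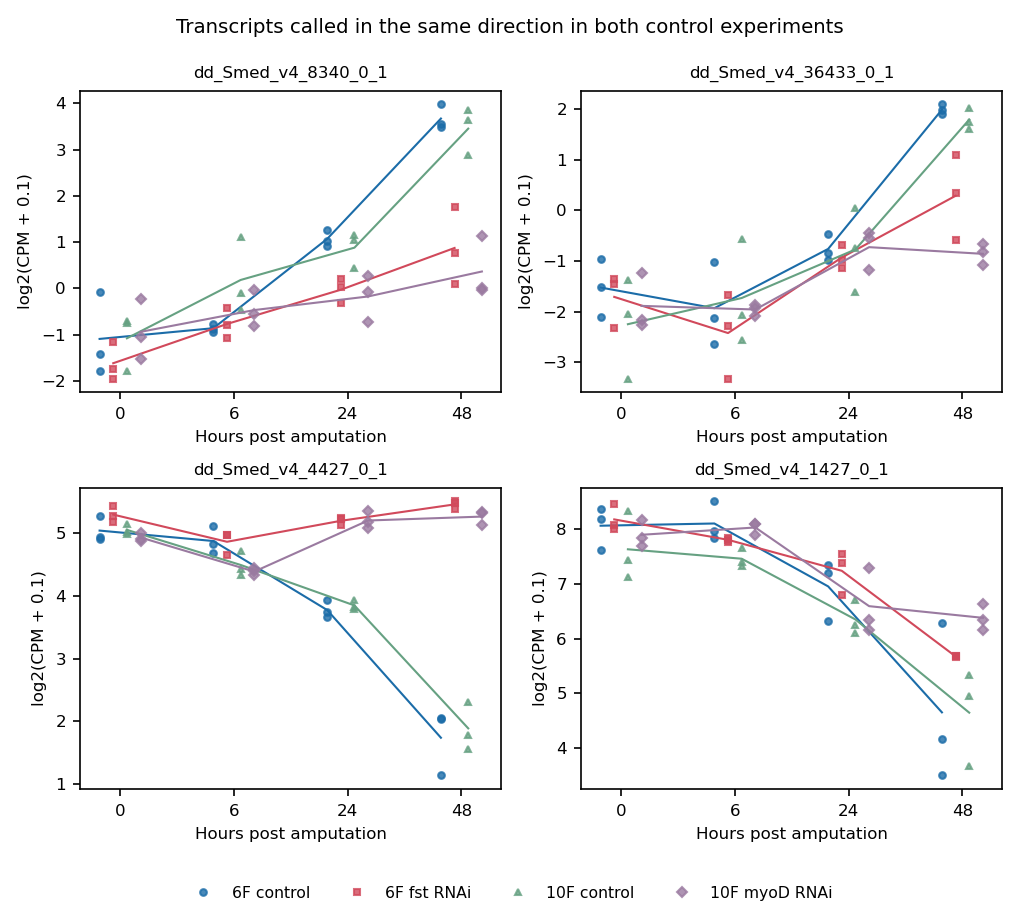
Levels on a log2(CPM + 0.1) axis against hours post amputation for the 4 transcripts called in the same direction in both control experiments, with 1 point per library and lines through group means. The controls of both experiments run together to high levels of dd_Smed_v4_8340_0_1 and dd_Smed_v4_36433_0_1 and low levels of dd_Smed_v4_4427_0_1 at 48 hpa, while dd_Smed_v4_4427_0_1 stays between 33.7 and 45.5 CPM at 24 and 48 hpa in both RNAi groups.

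Abundant transcripts were described separately, since counting error is smallest for them. dd_Smed_v4_601_0_1 had 218, 222 and 234 CPM in 6F controls at 48 hpa and 133, 133 and 122 CPM at 24 hpa, with no overlap. Its log2 fold change was 0.79 in 6F controls (SE 0.11, adjusted p = 5.57e-05), 0.34 in 10F controls (adjusted p = 0.00376) and 0.63 after fst RNAi (adjusted p = 0.00369) in edgeR's tests. It was also called higher after fst RNAi, where both times lie in the set of 9 libraries, and in the separate 10F experiment. With the set as a term it stayed called in edgeR (log2 fold change 0.56, adjusted p = 0.00371). That fit takes its 24 hpa level from the fst RNAi libraries, so it partly repeats the fst result. dd_Smed_v4_315_0_1 had 193, 160 and 204 CPM in 6F controls at 48 hpa and 97.0, 78.0 and 79.0 CPM at 24 hpa. These groups did not overlap and the log2 fold change was 1.12 (SE 0.21, adjusted p = 0.00295 in edgeR), but the transcript was not called in 10F controls (0.34, adjusted p = 0.450) and had a log2 fold change of −0.40 after fst RNAi (adjusted p = 0.271). With the set of libraries as a term its log2 fold change was −0.61 and not called (adjusted p = 0.154).

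The largest abundant fall was that of dd_Smed_v4_274_0_1, with 144, 791 and 118 CPM in 6F controls at 48 hpa and 1028, 1860 and 1912 CPM at 24 hpa. Replicate 2 stood far above the other 48 hpa replicates, and all 3 were below the 24 hpa libraries. The transcript fell by 2.19 on the log2 scale in 6F controls (SE 0.55, adjusted p = 0.0325), and its log2 fold change was −1.38 in 10F controls (adjusted p = 0.0324) and −1.99 after fst RNAi (adjusted p = 0.0799) in edgeR's tests. dd_Smed_v4_85_0_1 behaved alike, with 57.6, 408 and 75.6 CPM at 48 hpa and 439, 773 and 897 CPM at 24 hpa, again highest in replicate 2 of the 48 hpa libraries and without overlap. It fell by 1.97 on the log2 scale (SE 0.53, adjusted p = 0.0436 in edgeR), with −1.46 in 10F controls (adjusted p = 0.0357) and −1.51 after fst RNAi (adjusted p = 0.125). With the set of libraries as a term, dd_Smed_v4_274_0_1 stayed called in edgeR (log2 fold change −2.15, adjusted p = 0.0241) and dd_Smed_v4_85_0_1 did not (−1.75, adjusted p = 0.0518). The call of dd_Smed_v4_274_0_1 was lost in edgeR on leaving out replicate 2 (adjusted p = 0.106) or 3 (0.0996) of 24 hpa or replicate 1 (0.118) or 3 (0.0948) of 48 hpa, and that of dd_Smed_v4_85_0_1 without the same libraries (0.127, 0.139, 0.123 and 0.139).

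Of the transcripts of at least 100 CPM, 8 were called at least 2-fold lower in 6F controls. Their log2 fold changes were −2.19 to −1.03 in 6F controls, −1.46 to −0.74 in 10F controls and −1.99 to −0.28 after fst RNAi. All 8 were also called lower in 10F controls by edgeR, and 1 of the 8 after fst RNAi. Together they took 0.0734%, 0.271% and 0.0814% of scaled counts in 6F controls at 48 hpa and 0.344%, 0.559% and 0.573% at 24 hpa. In 10F controls they took 0.0795%, 0.142% and 0.213% at 48 hpa and 0.415%, 0.292% and 0.334% at 24 hpa, so the times did not overlap in either experiment. After fst RNAi the shares were 0.174%, 0.224% and 0.204% at 48 hpa and 0.635%, 0.583% and 0.404% at 24 hpa, again without overlap. After myoD RNAi they were 0.286%, 0.353% and 0.349% at 48 hpa and 0.320%, 0.480% and 0.331% at 24 hpa, where the times overlap.

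**Figure D4:**
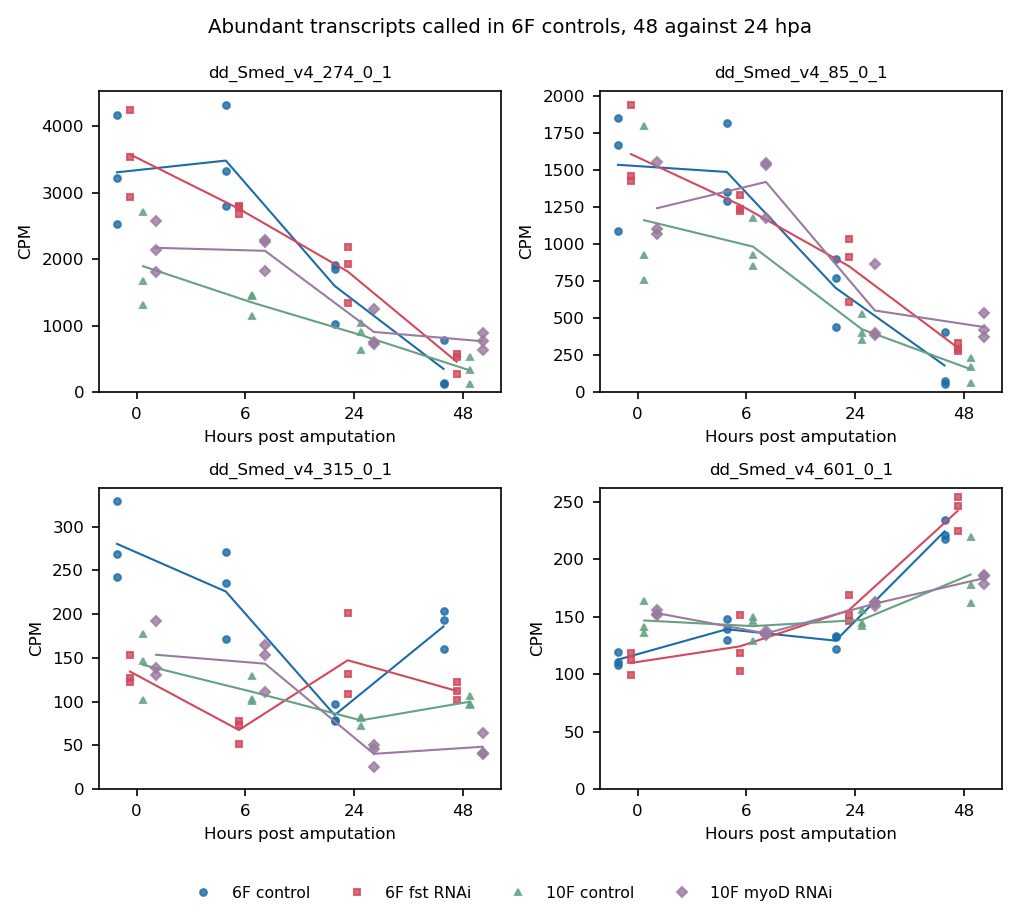
CPM against hours post amputation for the 4 transcripts with a mean of at least 100 CPM chosen for their rise or fall in 6F controls, with 1 point per library and lines through group means. dd_Smed_v4_274_0_1 and dd_Smed_v4_85_0_1 are high at 0 and 6 hpa in all groups and lower at 48 than at 24 hpa in both controls, dd_Smed_v4_601_0_1 is highest at 48 hpa in all 4 groups, and dd_Smed_v4_315_0_1 has no direction common to the groups between 24 and 48 hpa.

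The largest falls over all levels varied most between libraries. dd_Smed_v4_800_0_1 had 1.16, 4.67 and 1.51 CPM in 6F controls at 48 hpa and 16.4, 32.7 and 97.9 CPM at 24 hpa, and dd_Smed_v4_961_0_1 had 1.08, 28.4 and 12.1 CPM at 48 hpa and 40.1, 80.9 and 154 CPM at 24 hpa. The times did not overlap, although the libraries of each time differed widely among themselves. The log2 fold changes were −4.32 (SE 1.11, adjusted p = 0.0352) and −2.75 (SE 0.73, adjusted p = 0.0418) in edgeR's test. Neither was called in 10F controls (−2.57, adjusted p = 0.194; −2.49, adjusted p = 0.127) or after fst RNAi (−3.24, adjusted p = 0.0923; −2.52, adjusted p = 0.0810), with negative values throughout. With the set of libraries as a term both stayed called in edgeR (−3.68, adjusted p = 0.0269; −2.81, adjusted p = 0.0209). The call of dd_Smed_v4_800_0_1 was lost in edgeR on leaving out replicate 2 (adjusted p = 0.0655) or 3 (0.146) of 24 hpa or any replicate of 48 hpa (0.135, 0.0797 and 0.109), and that of dd_Smed_v4_961_0_1 on leaving out replicate 2 (0.0927) or 3 (0.164) of 24 hpa or replicate 1 (0.106) or 3 (0.121) of 48 hpa.

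The difference between the control experiments was tested directly, as the change in 6F controls minus that in 10F controls in a fit of all 48 libraries. Of 18230 transcripts, 17 were called (0.0933%), all with a more positive change in 6F controls. None was called with a more negative change by edgeR, where 500 had an unadjusted p under 0.05 in that direction, and DESeq2 called 31 more positive and 1 more negative. Of the 17, 7 were called higher in 6F controls, among them 5 that separate the 9 libraries from the 15, and 11 were called lower in 10F controls, with 1 in both. The 5 include dd_Smed_v4_28185_0_1, which defined the sets, and dd_Smed_v4_7642_0_1, chosen for its 6F difference, so their place among the 17 is no result. These and dd_Smed_v4_66719_0_1, also among the 7, had too few counts to be tested in the 10F experiment alone. In the 6F controls, leaving out replicate 1 of 48 hpa gave 4 calls, replicate 2 of 24 hpa 10 calls and replicate 3 of 24 hpa 75 calls.

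The 11 transcripts called lower in 10F controls had log2 fold changes of −3.70 to −0.45 there and of 0.15 to 1.20 in 6F controls, where 1 was called. dd_Smed_v4_12565_0_1, chosen after its values were seen, had 0.581, 0.476 and 0.504 CPM in 6F controls at 48 hpa and 0.115, 0.115 and 0.418 CPM at 24 hpa. It had 0.556, 0.136 and 0.195 CPM in 10F controls at 48 hpa and 5.23, 3.91 and 3.19 CPM at 24 hpa. The 10F libraries at 24 hpa were above all other control libraries of these times, and the difference in log2 fold change was 4.92 (SE 0.84, adjusted p = 0.00263 in edgeR; 0.0583 without 48 hpa replicate 1 of the 6F controls). dd_Smed_v4_12815_0_1, also chosen after its values were seen, had 4.40, 1.81 and 2.27 CPM in 6F controls at 48 hpa and 2.65, 0.917 and 3.24 CPM at 24 hpa, which overlap. It had 2.35, 2.18 and 2.73 CPM in 10F controls at 48 hpa and 9.70, 10.7 and 8.98 CPM at 24 hpa, which do not, and the difference in log2 fold change was 2.36 (SE 0.44, adjusted p = 0.00707 in edgeR; 0.377 without 48 hpa replicate 1 of the 6F controls).

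Levels before 24 hpa are given for these transcripts without a test. dd_Smed_v4_12815_0_1 averaged 3.26 CPM at 0 hpa and 1.07 CPM at 6 hpa in 6F controls, and 2.53 CPM at 0 hpa and 12.7 CPM at 6 hpa in 10F controls. In 10F controls all 11 had a higher mean at 6 than at 0 hpa, whereas in 6F controls 10 of the 11 had a lower mean at 6 than at 0 hpa and all 11 had a lower mean at 24 than at 0 hpa. All 11 had a negative log2 fold change between 48 and 24 hpa after fst RNAi, with 0 called in edgeR's test.

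dd_Smed_v4_21682_0_1, again chosen after its values were seen, followed the set of libraries. It had 8.14, 7.53 and 6.68 CPM in 6F controls at 48 hpa and 0.922, 1.55 and 0.731 CPM at 24 hpa, against 0.680, 1.29 and 0.845 CPM in 10F controls at 48 hpa and 1.29, 1.06 and 0.942 CPM at 24 hpa. After fst RNAi it had 4.21, 8.38 and 8.13 CPM at 48 hpa and 9.64, 8.70 and 9.66 CPM at 24 hpa, so all 9 libraries were above the others of these times. The difference in log2 fold change between the control experiments was 3.02 (SE 0.46, adjusted p = 0.000799 in edgeR).

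**Figure D5:**
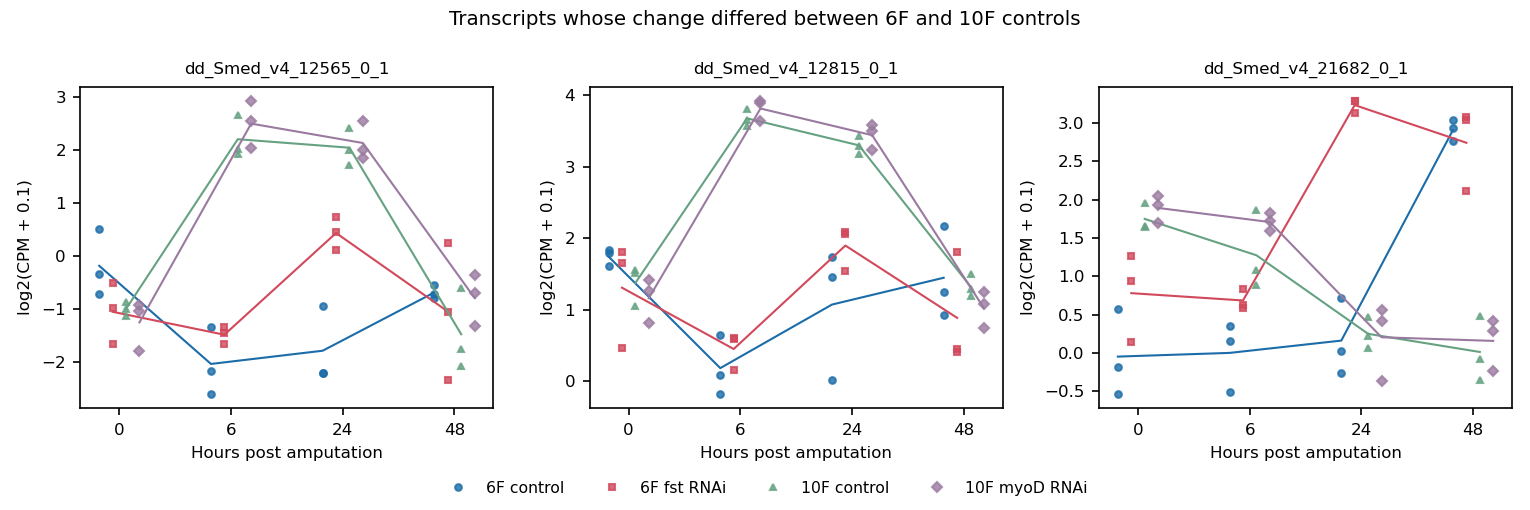
Levels on a log2(CPM + 0.1) axis against hours post amputation for 3 transcripts whose 24 to 48 hpa change differed between 6F and 10F controls, with 1 point per library and lines through group means. dd_Smed_v4_12565_0_1 and dd_Smed_v4_12815_0_1 are highest at 6 and 24 hpa in both groups of the 10F experiment, and dd_Smed_v4_21682_0_1 is high in 6F controls at 48 hpa and after fst RNAi at 24 and 48 hpa.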

How the data were processed

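The authors' deposited table holds counts, whole reads per transcript and library, for 26563 transcripts of a transcript assembly, 26280 of them with a count. Reads were handled with Bowtie 1.1.1, cutadapt 1.8, CASAVA, SAMtools and DESeq, per the submitters' processing notes; neither the build nor strand use in counting is given in the sources used here. The 20 comparison tables that the authors deposited give group means as a normalised signal, per the file headers; 6 were used, only to check the labels. The deposited means matched the same-named count columns in all 6 groups, and the ratio of these means had the direction of the edgeR change in 826 of 826 calls compared.

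These counts were tested with edgeR 4.0.16 in R 4.3.3 (filterByExpr, TMM, robust quasi-likelihood F-tests, 1 coefficient per group), with 24 libraries for each experiment (17815 transcripts in 6F, 17527 in 10F, 16 residual degrees of freedom each) and 48 for the difference between them (18230 transcripts). The biological coefficient of variation was 13.0% in 6F and 8.34% in 10F, which bears on their numbers of calls. Calls are transcripts with an adjusted p under 0.05 (Benjamini-Hochberg, over every transcript of the comparison). The SE of a log2 fold change is its size divided by the square root of F. CPM levels come from the TMM scaling of all 48 libraries. On data simulated for the 6F control comparison, with 17436 transcripts tested, 44%, 82%, 94% and 100% of 50 transcripts changed by 1.5, 2, 3 and 4-fold were recovered, and 8 of 168 calls were false. Floors cover counting error only: without molecular identifiers, several reads may stem from 1 molecule. Replicates differed beyond counting noise in all 18 pairs (chi-square per degree of freedom 3.83 to 105), so none was merged. Of the identifiers, 273 share a component number with another tested one, and reads of such relatives may be split; 12 of these were called in 6F controls.

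The libraries of the 6F experiment were divided at the largest gap of dd_Smed_v4_28185_0_1. Named transcripts were the 2 largest rises and falls, without overlap of libraries and with a mean of at least 1 CPM, over all 6F control calls, among calls shared with 10F controls, among calls of at least 100 CPM and for the difference between experiments; 3 more were chosen after their values were seen. The members, lists and rules were chosen with earlier results of these data known. Alternatives were RLE scaling, no filter, DESeq2 1.42.0, other sets of libraries, the replicate block and leaving out each replicate. Lists of named marker genes were not used, since 0 identifiers carry a name.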

Additional observations from a re-analysis of the deposited data

Results flagged for a closer look

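A test of the difference between 6F and 10F controls in the 48 against 24 hpa change singled out 17 transcripts, all with a more positive change in 6F controls. Among those described, the difference in log2 fold change was 9.19 for dd_Smed_v4_28185_0_1, a fitted value that depends on the prior count because the 24 hpa controls of 6F held 0 counts, and 5.62 for dd_Smed_v4_7642_0_1. Both had been singled out for their values in 6F controls and had too few counts to be tested in the 10F experiment alone, so these values are a description. It was 3.02 for dd_Smed_v4_21682_0_1. These 3 transcripts also separate the 9 libraries of the 6F experiment that hold the 48 hpa controls from its other 15, and the time and the set of libraries cannot be told apart in 6F controls. The difference was 4.92 for dd_Smed_v4_12565_0_1 and 2.36 for dd_Smed_v4_12815_0_1, which do not separate the 9 libraries and had log2 fold changes of −3.70 and −2.01 in 10F controls (adjusted p = 3.60e-07 and 3.64e-10 in edgeR). The cause of these differences was not tested.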

How the results depend on the processing

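The 829 calls in 6F controls became 1968 with the 6 libraries fitted alone, 1675 with all 48 libraries in 1 fit, 1916 without the contaminated library, 291 with the set of libraries as a term and 208 with both; RLE scaling, no filter and DESeq2 gave 825, 740 and 1214. Leaving out 1 replicate gave 336 to 492 calls, and 1076 to 1426 with the contaminated library also out (1396, 1076 and 1198 for 24 hpa replicates 1 to 3, and 1411, 1273 and 1426 for 48 hpa replicates 1 to 3). Calls shared with 10F controls numbered 440, and 728 with 1 fit of all libraries, 725 without the contaminated library, 160 with the set as a term and 126 with both; they were 236 to 301 with 1 replicate left out and 511 to 619 with the contaminated library also out. The 10F controls had 1827 calls, and 848 to 1972 with 1 replicate left out, lowest without 48 hpa replicate 1. The fst comparison, with 192 calls, had 913 by DESeq2, 0 by edgeR with its 6 libraries fitted alone (1285 at an unadjusted p under 0.05), 80 without the contaminated library and 44 to 1691 with 1 replicate left out. The 17 differences between experiments were 32 by DESeq2, 31 without the contaminated library and 4 to 75 with 1 replicate left out. The set of libraries as a term turned the direction of dd_Smed_v4_7642_0_1 (−0.27, and −0.013 without the contaminated library), dd_Smed_v4_315_0_1 (−0.61 and −0.66), dd_Smed_v4_12565_0_1 (−1.52 and −1.99), dd_Smed_v4_12815_0_1 (−0.77 and −0.97) and dd_Smed_v4_21682_0_1 (−0.16; 0.05 without the contaminated library). With that term the level of the 24 hpa controls cancels, and 48 hpa is set against the fst RNAi libraries at 24 hpa. After fst RNAi the log2 fold changes of these transcripts, in the same order, were −0.305, −0.398, −1.38, −0.976 and −0.414. The last 3 were chosen after their values were seen, and dd_Smed_v4_12815_0_1, not called in 6F controls, ran from −0.19 (48 hpa replicate 1 left out) to 0.68 (24 hpa replicate 3 left out), with −0.036 for 24 hpa replicate 2; with the contaminated library also out, the values for 48 hpa replicate 1 and 24 hpa replicate 2 were −0.18 and −0.032. dd_Smed_v4_601_0_1 stayed called under all 21 alternatives. Of the same 21, the result was weaker in 12 for dd_Smed_v4_800_0_1 and dd_Smed_v4_85_0_1. It was weaker in 11 for dd_Smed_v4_961_0_1 and dd_Smed_v4_1427_0_1 and in 10 for dd_Smed_v4_274_0_1. The cause of these shifts was not tested; leaving out libraries leaves fewer samples by construction.

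The replicate numbers of the labels did not pair the samples: same-numbered libraries of 48 and 24 hpa deviated together with r of −0.13 to 0.13 in 6F controls and −0.16 to 0.07 in 10F controls. With the replicate block there were 744 calls in 6F controls, 1764 in 10F controls, 135 after fst RNAi and 16 differences between experiments, and 407 calls shared between the control experiments. Depth limits rare transcripts most: 3 calls rest on a 24 hpa group at 0 counts, although the 24 hpa controls were the deeper ones. The shared calls, the leave-outs with the contaminated library also out, the fit with both changes and the differences without that library were chosen after seeing the data.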
